A study of Mus musculus with 36 samples.

Results

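Rgs2, Ramp3, Cbarp, Crem, Pde4b, Nfil3 and Pfkfb3 are 7 genes known or proposed to respond to the second messenger cyclic AMP, and they were followed here in mouse embryonic fibroblasts with and without the kinase PKB alpha. The 7 genes were taken by gene symbol, which found 13 probe sets among the 22690 on the array and made up 7 of the 12393 genes that could be named. The genes had been chosen by their signal changes at the early times 2 and 6 in these same arrays, so those early values are given below as a description with no test. The tests concern time 0 and the later times 24 and 48, and each is read against the share of all genes that passed it. The early changes were taken from the arrays of time 0, so tests that use time 0 share those arrays with the choice of genes and are not independent of it. Only the genotype comparisons at times 24 and 48 compare no arrays of times 0, 2 and 6. Each of the 7 genes passed the filter on low signal, with Crem and Pfkfb3 closest to it. The limit was a signal of 123. Pfkfb3 averaged below it in every PKBa-/- group but time 2 (58.3 to 105). Crem did so in both genotypes at times 0 and 24 (102 to 115). Pfkfb3 thus passed through its wild type and time 2 arrays, and Crem mainly through the early times that chose it. That both were tested is therefore not independent of the results below. Group means also lay under the limit for Ramp3 in PKBa-/- at times 0 and 48 (108 and 119). The same held for Pde4b in PKBa-/- (85.1) and Rgs2 in wild type (83.8), each at time 0. Ratios to these means rest on low signals.

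Total RNA of PKBa-/- and wild type fibroblasts was measured on 36 arrays at times 0, 2, 6, 24 and 48, for which the labels give no unit. PKBa is the product of Akt1, a protein kinase that acts below PI 3-kinase in insulin and growth factor signalling. The cells came from 13.5-day-old embryos of crosses between heterozygous mice and were used at passages 15 to 20. For each genotype there were 4 arrays at every time except time 2, which had 2 (replicates 1 and 2). PKBa-/- cells lacked PKBa and wild type cells carried it, and no other allele is named. The series is described as a time course in DMEM, a culture medium, and both genotypes shared it. The labels' protocol also describes an adipocyte induction medium with insulin, dexamethasone and isobutylmethylxanthine, an inhibitor of phosphodiesterases that raises cyclic AMP, without saying whether these arrays received it. The number of embryos, cultures or cell lines behind each genotype is not given, so a difference between genotypes cannot be told apart from a difference between lines. Nothing says that replicates were separate cultures, and p-values therefore measure only the spread between arrays, which may be technical.

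Akt1 averaged 74.3 ± 14.3 signal units in PKBa-/- arrays and 1117 ± 183 in wild type arrays (SD, n = 18 each), and the highest PKBa-/- array (103) lay below the lowest wild type array (843). Its relative Akt2 averaged 602 ± 74.1 in PKBa-/- and 614 ± 64.5 in wild type arrays. Array medians ran from 134 to 145 signal units. Precision is limited by how many arrays there are. Within a group, replicate 1 resembled replicate 2, and replicate 3 resembled replicate 4, with correlations over genes of 0.982 to 0.997 inside such a pair and 0.942 to 0.989 across pairs. Each result below was therefore also computed on pair averages. Time 2 held a single pair, so pair averages left 1 value a genotype there. Of 8 fibroblast markers, 8 lay above the signal limit, with a summed signal of 54805 to 61776 in PKBa-/- and 34118 to 49514 in wild type arrays, and 0 of 5 epithelial markers did. No marker was listed at 0, and the lowest signal of any probe set was 8.62. Among adipocyte markers, Cebpa and Lpl were above the limit out of 5 on the arrays, and the summed signal of the list ran from 899 to 2037 in PKBa-/- and from 2432 to 5737 in wild type arrays. The endothelial list had 1 of 5 above the limit, Kdr, and summed to 312 to 529 in PKBa-/- and 541 to 1717 in wild type arrays. Macrophage and blood cell markers had 2 of 6 above it (Csf1r and Cd14), muscle markers 1 of 5 (Des) and neural markers 2 of 5 (Nes and Sox10). The lists also moved with time. The endothelial sum was 1275 to 1717 at time 48 in wild type, against 541 to 594 at time 0, and the wild type fibroblast sum was 34118 to 38121 at time 48, against 45397 to 49514 at time 0. The PKBa-/- adipocyte sum was 1872 to 2037 at time 48, against 954 to 1422 at time 0. The part of such cells in the differences between genotypes and times below was not tested.

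Cyclic AMP is made by adenylyl cyclase below receptors coupled to stimulatory G proteins and activates protein kinase A. That kinase phosphorylates CREB, a transcription factor which binds the cyclic AMP response element and switches on genes within a short time. Several of the induced genes act back on the pathway. Rgs2 shortens G protein signals, Pde4b hydrolyses cyclic AMP, and Crem gives rise to repressors that occupy the same element. Ramp3 is a membrane partner of the calcitonin receptor-like receptor and turns it into a receptor for adrenomedullin. Cbarp binds the beta subunits of voltage-gated calcium channels and restrains the channels. Nfil3 is a basic leucine zipper repressor linked to the circadian clock, and Pfkfb3 makes fructose 2,6-bisphosphate, which speeds glycolysis.

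The bases before the start sites of 4 members are shown, which differ in the element's letters. Whether these letters go with the response of the genes was not tested. RefSeq's table for GRCm38.p6 gave 11 windows for 6 of the 7 genes, and Crem had none. Each window shown holds the 250 bases before the start site, 5′ to 3′ in the direction of transcription. Capitals mark TGACG, the core of the cyclic AMP response element, or its other strand CGTCA.
Rgs2, chr1:144004150-144004399, minus strand: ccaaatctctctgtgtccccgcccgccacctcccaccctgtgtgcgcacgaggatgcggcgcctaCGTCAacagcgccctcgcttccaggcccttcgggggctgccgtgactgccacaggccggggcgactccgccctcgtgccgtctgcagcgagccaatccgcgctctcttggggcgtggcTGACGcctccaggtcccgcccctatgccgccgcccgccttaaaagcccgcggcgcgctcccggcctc
Nfil3, chr13:52981040-52981289, minus strand: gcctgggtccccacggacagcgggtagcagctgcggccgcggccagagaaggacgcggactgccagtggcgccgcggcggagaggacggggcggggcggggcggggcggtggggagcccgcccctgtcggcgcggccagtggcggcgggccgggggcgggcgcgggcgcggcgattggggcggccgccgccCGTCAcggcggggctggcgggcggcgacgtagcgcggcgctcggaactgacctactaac
Pfkfb3, chr2:11553930-11554179, minus strand: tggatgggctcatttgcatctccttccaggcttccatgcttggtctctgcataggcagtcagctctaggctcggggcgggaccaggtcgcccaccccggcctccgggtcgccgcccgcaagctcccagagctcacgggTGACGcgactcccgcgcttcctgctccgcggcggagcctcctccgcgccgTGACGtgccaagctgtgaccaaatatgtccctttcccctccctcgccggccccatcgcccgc
Ramp3, chr11:6658283-6658532, plus strand: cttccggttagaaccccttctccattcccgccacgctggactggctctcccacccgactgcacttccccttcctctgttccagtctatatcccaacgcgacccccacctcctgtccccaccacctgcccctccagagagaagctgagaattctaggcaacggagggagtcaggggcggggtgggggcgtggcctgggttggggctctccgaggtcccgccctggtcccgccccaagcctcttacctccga
Rgs2 held 2 such matches, which began 185 and 67 bases before the start site. Nfil3 held 1 at 59 bases, Pfkfb3 held 2 at 112 and 62 bases in the window shown, and Ramp3 held none. A second Pfkfb3 window had 1 at 6 bases, 1 of 2 Cbarp windows had 1 at 110 bases and 1 of 4 Pde4b windows had 1 at 34 bases. Searched on both strands, 6 of the 11 windows held the core, against 17.8% of all 32851 windows. Counted by gene, 5 of 6 members had it in a window, against 19.8% of 27025 genes, but the members have more windows per gene. The full palindrome TGACGTCA, which contains the core on both strands, was in 0 of the 6 members and in 1.77% of all genes. A match is a run of letters and not a known binding site, and the arrays do not say which start site was used.

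All 7 genes were higher at time 2 than at time 0 on every wild type array, and 6 of 7 were on every PKBa-/- array, Ramp3 being the exception. The arrays of 15.3% of all 7436 genes tested lay above time 0 without overlap in wild type, and those of 20.3% did in PKBa-/-, but these changes chose the genes and nothing is read from the counts. At time 6, 6 of 7 were above time 0 without overlap in PKBa-/- (20.6% of all genes), all but Crem, and 6 of 7 in wild type (17.3% of all genes), all but Pfkfb3. These counts read each gene on its brightest probe set. On 1449037_at, another probe set of Crem, PKBa-/- arrays of time 6 (144 to 181) also lay above those of time 0 (63.0 to 80.5). The median log2 change of the 7 genes at time 2 was 1.65 in PKBa-/- and 1.93 in wild type cells, while the median over all genes was -0.02 and -0.05. At time 6 it was 0.93 in PKBa-/- and 0.71 in wild type cells. In bulk RNA, fewer cells that express a gene and less RNA per cell cannot be told apart. The plot of all arrays shows these courses gene by gene.

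**Figure D1:**
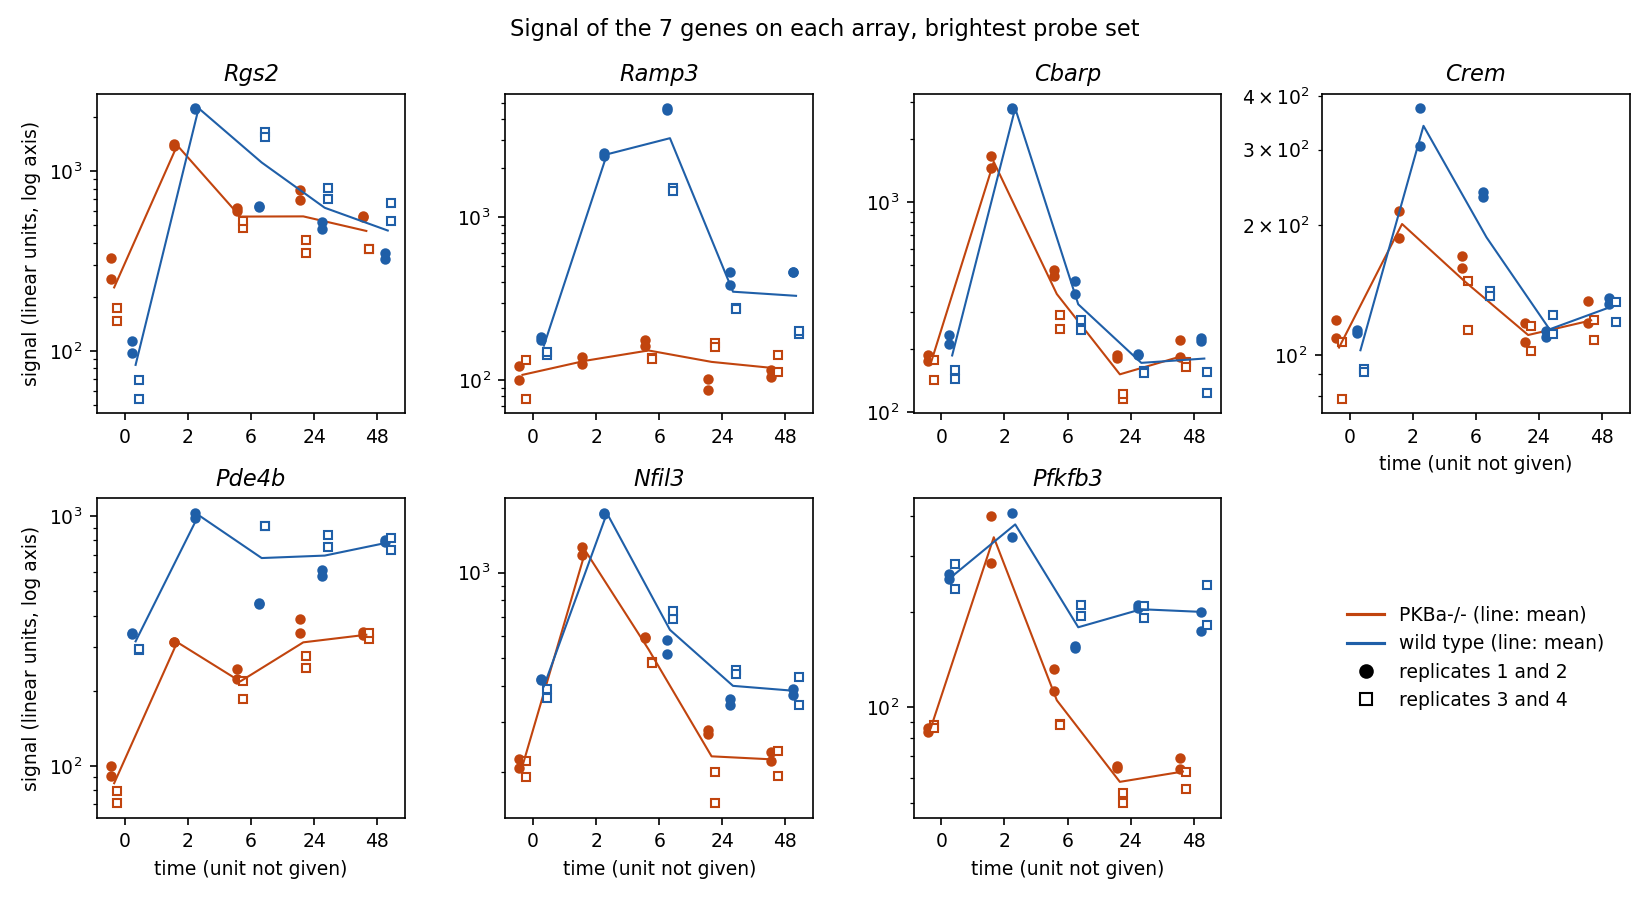
Signal of each of the 7 genes (vertical log axis, linear signal units) on every array against time (unit not given), with PKBa-/- left of wild type at each time. Filled circles are replicates 1 and 2, open squares are replicates 3 and 4, and lines join group means. Ramp3 reached 4679 in wild type and at most 176 in PKBa-/- arrays, while Pde4b lay lower in PKBa-/- at all 5 times.

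Rgs2 (chromosome 1) started higher and peaked lower in PKBa-/- cells. On its brighter probe set, 1419247_at, PKBa-/- arrays read 253, 329, 148 and 174 at time 0, 1406 and 1374 at time 2, 599, 623, 483 and 530.2 at time 6, 783, 695, 351 and 412 at time 24, and 564, 559, 368 and 368 at time 48. Wild type arrays read 114, 97.1, 54.3 and 69.5 at time 0, 2241 and 2227 at time 2, 631, 644, 1644 and 1546 at time 6, 477, 523, 801 and 702 at time 24, and 351, 325, 664 and 530.1 at time 48. The genotypes did not overlap at times 0, 2 and 6, with PKBa-/- above wild type at time 0 and below it at times 2 and 6, and they overlapped at times 24 and 48. On this probe set every later array lay above every array of time 0 in each genotype. On the dimmer probe set, 1419248_at, the genotypes also overlapped at time 6, and the lowest PKBa-/- array at time 24 (98.6) lay below the highest at time 0 (109). The mean at time 2 was 6.16 times that of time 0 in PKBa-/- and 26.7 times in wild type cells. In descending order the group means were those of wild type time 2 (2234), PKBa-/- time 2 (1390.2), wild type time 6 (1116), wild type time 24 (626), PKBa-/- time 24 (560.2), PKBa-/- time 6 (559), wild type time 48 (467), PKBa-/- time 48 (465), PKBa-/- time 0 (226) and wild type time 0 (83.8). Neighbours in this order from PKBa-/- time 2 to PKBa-/- time 48 overlapped. Within each of the 4 replicate numbers, wild type time 6 was nevertheless above wild type time 24.

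At time 0 the difference of Rgs2, PKBa-/- minus wild type, was 1.13 ± 0.28 on the scale of log2(signal + 32) (SE, limma adjusted p = 0.00167). This scale understates the change of low signals. The second probe set, 1419248_at, also lay higher in PKBa-/- (70.1 ± 32.5) than in wild type arrays (25.4 ± 5.44, SD, n = 4 each), with a difference of 0.78 ± 0.30 and an adjusted p of 0.0514 among all probe sets. With pair averages the difference at time 0 did not pass (adjusted p = 0.111), although it was 1.22 within replicates 1 and 2 and 1.04 within replicates 3 and 4. With a random effect of pairs it passed (adjusted p = 0.00504). From time 0 to time 24 Rgs2 rose by 1.18 ± 0.28 in PKBa-/- (adjusted p = 0.00169) and by 2.51 ± 0.28 in wild type cells (adjusted p = 3.34e-08). By time 48 the rise was 0.97 ± 0.28 in PKBa-/- (adjusted p = 0.00826) and 2.08 ± 0.28 in wild type cells (adjusted p = 8.91e-07). Pair averages kept both rises in wild type (adjusted p = 0.00608 and 0.0157) and neither in PKBa-/- (adjusted p = 0.148 and 0.227). A random effect of pairs kept those in PKBa-/- (adjusted p = 0.00641 and 0.0249). Within replicates 1 and 2 and within replicates 3 and 4, PKBa-/- rose by 1.26 and 1.10 at time 24. At time 48 it rose by 0.89 and 1.06. The wild type rises were 1.95 and 3.06 at time 24, and 1.43 and 2.74 at time 48.

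The 2 pairs of replicates gave different courses for Rgs2. In wild type, replicates 1 and 2 were 2.28 above time 0 at time 6 and replicates 3 and 4 were 4.12 above it, in log2 units. Within replicates 1 and 2, the difference of PKBa-/- minus wild type was 0.53 at time 24 and 0.68 at time 48. Within replicates 3 and 4 it was -0.92 and -0.64. The means over 4 arrays at these times thus average opposite signs, and the differences of -0.19 ± 0.28 at time 24 (adjusted p = 0.618) and 0.02 ± 0.28 at time 48 (adjusted p = 0.964) do not show that the genotypes were alike.

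Ramp3 (chromosome 11) showed the widest gap between genotypes of the 7 genes at times 2 and 6, measured as a log2 difference. Its probe set read 122, 100.4, 77.1 and 133 in PKBa-/- arrays at time 0, 138 and 126 at time 2, 176, 162, 136 and 135 at time 6, 87.3, 102, 170.4 and 159.8 at time 24, and 115, 104, 143 and 112 at time 48. Wild type arrays read 176, 185, 143 and 149 at time 0, 2390.1 and 2477 at time 2, 4679, 4575, 1522 and 1451 at time 6, 385, 463, 278 and 273 at time 24, and 464, 464, 192 and 201 at time 48. The genotypes overlapped at none of the 5 times, with PKBa-/- lower at each. In PKBa-/- the group means stayed between 108 and 152 over the 5 times, and neighbours in that order overlapped. In wild type the order from high to low was time 6 (3057), time 2 (2433), time 24 (349.7), time 48 (329.9) and time 0 (163). Time 6 and time 2 overlapped, as did time 24 and time 48, although replicates 1 and 2, the pair measured at both early times, were higher at time 6. The PKBa-/- mean was 18.4-fold below the wild type mean at time 2 and 20.0-fold below it at time 6.

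At time 24 Ramp3 averaged 129.8 ± 41.5 in PKBa-/- and 349.7 ± 91.3 in wild type arrays (SD, n = 4 each), a log2 difference of -1.24 ± 0.29 (adjusted p = 0.000662). At time 48 the difference was -1.16 ± 0.29 (adjusted p = 0.00122). Neither passed with pair averages (adjusted p = 0.0715 and 0.0826), and the difference at time 24 was -1.85 within replicates 1 and 2 and -0.64 within replicates 3 and 4. At time 0 the difference of -0.49 ± 0.29 did not pass (adjusted p = 0.168), although the arrays did not overlap. Between time 0 and the later times Ramp3 rose in wild type by 0.94 ± 0.29 at time 24 (adjusted p = 0.0139) and by 0.79 ± 0.29 at time 48 (adjusted p = 0.0378). Both wild type rises were lost with pair averages (adjusted p = 0.275 and 0.356), the rise at time 24 also without wild type time 24 replicate 2 (adjusted p = 0.0544). With no filter on low signal the rise at time 48 had an adjusted p of 0.0568, and with a random effect of pairs 0.107. It was also lost without any 1 of the 4 wild type arrays of time 0, or without time 48 replicate 1 or 2 (adjusted p = 0.05003 to 0.143). In PKBa-/- the changes were 0.19 ± 0.29 (adjusted p = 0.709) and 0.12 ± 0.29 (adjusted p = 0.818). Calcrl, the receptor with which Ramp3 pairs, had a mean signal of 25.6, under the limit of 123. Ramp1, another partner of that receptor, changed by -0.35 ± 0.14 in wild type at time 6 (adjusted p = 0.0408).

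Pde4b (chromosome 4) rose in both genotypes and stayed high, at a lower level in PKBa-/- cells. PKBa-/- arrays read 91.0, 99.7, 79.0 and 70.7 at time 0, 314 and 312 at time 2, 243, 223, 186 and 219 at time 6, 386, 341, 277 and 246 at time 24, and 336, 344, 321 and 339 at time 48. Wild type arrays read 337, 341, 290.2 and 293 at time 0, 986 and 1034 at time 2, 448, 446, 915 and 910.3 at time 6, 576, 610.1, 753 and 843 at time 24, and 801, 787, 818 and 733 at time 48. No array of PKBa-/- reached the wild type arrays of its own time, and every later array lay above every array of time 0 in its genotype. The PKBa-/- mean was 3.70-fold below the wild type mean at time 0 and 2.34-fold below it at time 48.

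The log2 difference of Pde4b between PKBa-/- and wild type was -1.57 ± 0.16 at time 0 (adjusted p = 1.92e-09), -1.08 ± 0.16 at time 24 (adjusted p = 1.77e-06) and -1.15 ± 0.16 at time 48 (adjusted p = 5.61e-07). Its rise from time 0 was 1.54 ± 0.16 at time 24 and 1.65 ± 0.16 at time 48 in PKBa-/- (adjusted p = 8.60e-09 and 1.51e-09). In wild type it was 1.05 ± 0.16 and 1.24 ± 0.16 (adjusted p = 8.05e-06 and 5.70e-07). The second probe set passed each of these 7 tests in the same direction. All 7 also passed under each of the 19 other settings run. The difference between the genotypes' rises did not pass at time 24 (0.49 ± 0.23, adjusted p = 0.214) or at time 48 (0.42 ± 0.23, adjusted p = 0.245), and the second probe set gave -0.13 ± 0.19 and 0.06 ± 0.19. The wild type value at time 6 depended on the replicates, with a change of 0.37 within replicates 1 and 2 and 1.55 within replicates 3 and 4.

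**Figure D2:**
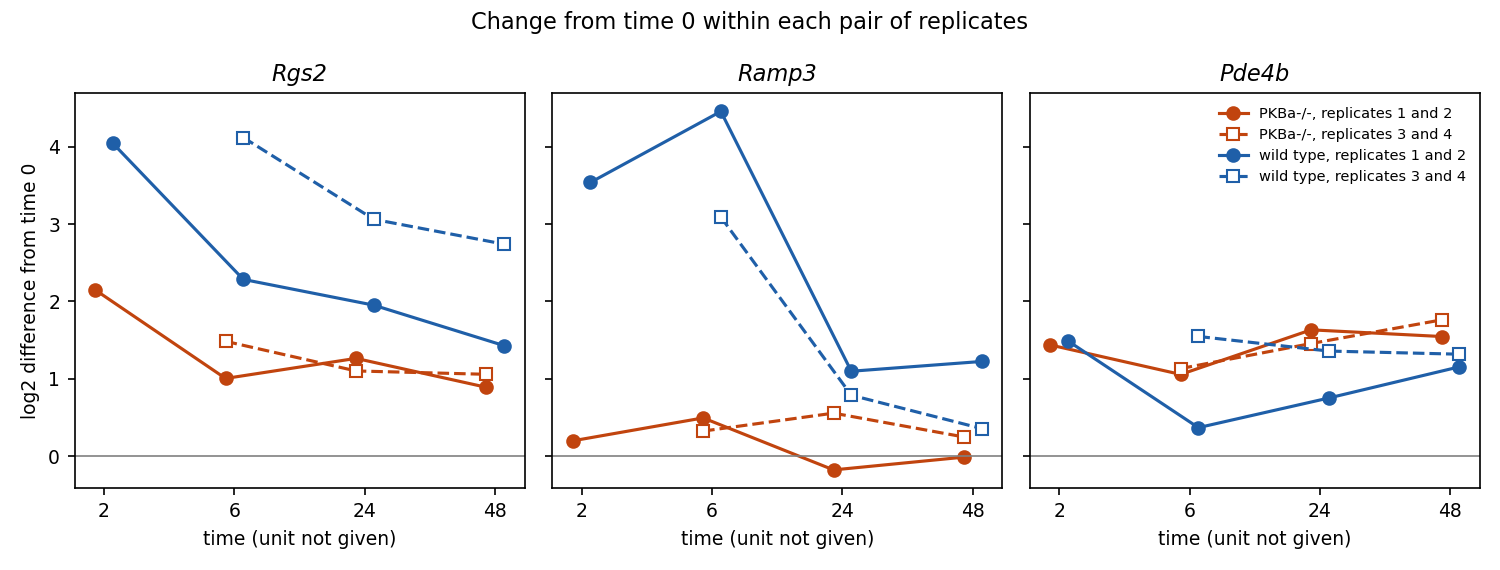
Log2 difference from time 0 (vertical axis) of Rgs2, Ramp3 and Pde4b at times 2, 6, 24 and 48 (unit not given) in PKBa-/- and wild type, within replicates 1 and 2 (filled circles, full lines) and within replicates 3 and 4 (open squares, broken lines). Rgs2 of wild type stood at 2.28 in the first pair and 4.12 in the second at time 6, and Ramp3 at 4.46 and 3.09.

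Nfil3 (chromosome 13) was lower in PKBa-/- cells at times 0, 24 and 48 and peaked at time 2 in both genotypes. In PKBa-/- the arrays read 223, 206, 219.6 and 192 at time 0, 1155 and 1226 at time 2, 593, 591, 486 and 484 at time 6, 279.8, 273, 201 and 155 at time 24, and 219, 235, 194 and 238 at time 48. In wild type they read 422, 420.3, 364 and 392 at time 0, 1606 and 1622 at time 2, 579.5, 519, 688 and 733 at time 6, 359.8, 344, 457 and 443 at time 24, and 374, 391, 432 and 343 at time 48. The genotypes overlapped at time 6 alone. At times 24 and 48 each genotype overlapped its own arrays of time 0. The log2 difference of PKBa-/- minus wild type was -0.83 ± 0.12 at time 0 (adjusted p = 1.64e-06), -0.76 ± 0.12 at time 24 (adjusted p = 5.37e-06) and -0.72 ± 0.12 at time 48 (adjusted p = 1.21e-05). Each passed under all 19 other settings. The change from time 0 at times 24 and 48 lay between -0.05 and 0.07 in both genotypes and did not pass (adjusted p = 0.752 and 0.760 in PKBa-/-, 0.993 and 0.786 in wild type). At time 24 these means average opposite signs. In PKBa-/- the change was 0.32 ± 0.07 in the pair of replicates 1 and 2, but -0.18 ± 0.12 in the other pair, and in wild type it was -0.24 ± 0.07 and 0.23 ± 0.12. The genotype difference at time 24 was -0.32 within replicates 1 and 2 and -1.21 within replicates 3 and 4.

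Pfkfb3 (chromosome 2) was, on its brighter probe set, about as high in PKBa-/- as in wild type cells at time 2 alone. On probe set 1416432_at PKBa-/- arrays read 86.4, 83.4, 87.6 and 86.4 at time 0, 285 and 400.3 at time 2, 132, 112, 88.6 and 87.8 at time 6, 64.2, 65.3, 49.9 and 53.7 at time 24, and 69.2, 63.98, 55.5 and 62.4 at time 48. Wild type arrays read 262, 253, 235 and 282 at time 0, 343 and 409.6 at time 2, 153, 156, 194 and 210.1 at time 6, 206, 209, 208 and 190.4 at time 24, and 174, 200.1, 242 and 182 at time 48. On this probe set the genotypes overlapped at time 2 and at no other time. At time 6 each PKBa-/- array lay above every array of its time 0, while each wild type array lay below every array of its time 0. In PKBa-/- the mean change was 0.40 ± 0.11 in the pair of replicates 1 and 2, but 0.01 ± 0.11 in the other pair. The dimmer probe set, 1456676_a_at, gave -0.13 ± 0.12. In wild type the dimmer probe set averaged 93.9 at time 6 and 96.3 at time 0, and these arrays overlapped. At time 2 its PKBa-/- mean was 1.27 times that of time 0, against 3.99 times on 1416432_at. The genotypes overlapped on the dimmer probe set at every time but time 0.

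The log2 difference of Pfkfb3 between PKBa-/- and wild type was -1.30 ± 0.11 at time 0 (adjusted p = 7.46e-12), -1.39 ± 0.11 at time 24 (adjusted p = 1.17e-12) and -1.28 ± 0.11 at time 48 (adjusted p = 7.58e-12), and each passed under the 19 other settings. On the dimmer probe set the differences did not pass, at -0.18 ± 0.12, -0.21 ± 0.12 and -0.27 ± 0.12 (adjusted p = 0.254, 0.221 and 0.0898 among all probe sets). It averaged 81.0 ± 0.642 in PKBa-/- and 96.3 ± 9.67 in wild type arrays at time 0 (SD, n = 4 each). From time 0 Pfkfb3 fell by 0.39 at time 24 and by 0.32 at time 48 in PKBa-/- (SE 0.11, adjusted p = 0.00554 and 0.0219), and by 0.30 and 0.33 in wild type (adjusted p = 0.0324 and 0.0170). None of these 4 falls passed with pair averages (adjusted p = 0.139 to 0.273) or a random effect of pairs (adjusted p = 0.169 to 0.338). With the mean of both probe sets, 3 of the 4 were lost, all but that of PKBa-/- at time 24 (adjusted p = 0.0602 to 0.125). The fall at time 24 in wild type also missed without time 0 replicate 1, 2 or 4 or time 24 replicate 1 or 4 (adjusted p = 0.0516 to 0.0952). The fall at time 48 in wild type missed without time 0 replicate 4 or time 48 replicate 1 or 4 (adjusted p = 0.0537 to 0.0618), and that in PKBa-/- without time 48 replicate 3 (adjusted p = 0.0699).

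Cbarp (chromosome 10) gave a short pulse at time 2. Probe set 1438370_x_at read 1447 and 1661 in PKBa-/- and 2787 and 2804 in wild type arrays at time 2, against 143 to 186 in PKBa-/- and 144 to 232 in wild type arrays at time 0. At time 6 it averaged 365 ± 112 in PKBa-/- and 326 ± 81.3 in wild type arrays (SD, n = 4 each), and at times 24 and 48 it lay between 116 and 219 in PKBa-/- and between 123 and 225 in wild type. On this probe set the genotypes overlapped at every time but time 2. The genotype differences at times 0, 24 and 48 were -0.09, -0.17 and 0.06 (SE 0.18) and did not pass (adjusted p = 0.699, 0.484 and 0.813). Probe set 1433494_at read 563 and 565 in PKBa-/- and 1076 and 1330 in wild type arrays at time 2. At time 48 its genotypes did not overlap either, with 144 to 150 in PKBa-/- and 128 to 141 in wild type arrays.

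Crem had 3 probe sets, and which of its isoforms each one reads was not worked out. On 1418322_at PKBa-/- arrays read 109, 120.4, 107 and 79.0 at time 0, 187 and 216 at time 2, and 159.5, 169, 148 and 114 at time 6. Wild type arrays read 112, 114, 92.6 and 91.0 at time 0, 375 and 307 at time 2, and 232, 239, 141 and 137 at time 6. At time 2 the genotypes did not overlap and PKBa-/- was lower. At times 24 and 48 the values lay between 102 and 134 in PKBa-/- and between 110 and 136 in wild type. Probe set 1449037_at averaged 205 ± 15.0 in PKBa-/- and 291 ± 48.5 in wild type arrays at time 2 (SD, n = 2 each). At time 6 it read 144 to 181 in PKBa-/- and 116 to 383 in wild type arrays. Both ranges lay above those of time 0 (63.0 to 80.5 in PKBa-/- and 74.0 to 79.4 in wild type). Probe set 1430598_at stayed between 11.3 and 16.6 on all arrays. No genotype difference of Crem passed at times 0, 24 or 48 (adjusted p = 0.949, 0.849 and 0.590).

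Of the 7 genes, 4 passed in the genotype comparison at time 0, where 41.3% of all genes did. Rgs2 was higher in PKBa-/- and Pde4b, Nfil3 and Pfkfb3 were lower. Ramp3, Pde4b, Nfil3 and Pfkfb3 were lower in PKBa-/- at time 24, 4 of 7 against 42.6% of all genes, and the same 4 were lower at time 48, where 46.9% of all genes passed. The median difference of the 7 was -0.49, -0.76 and -0.72 at times 0, 24 and 48, and the median of all genes was 0.03, 0.01 and 0.04. From time 0 to time 24, 3 of 7 passed in PKBa-/- (26.5% of all genes) and 4 of 7 in wild type (27.1%). From time 0 to time 48, 3 of 7 passed in PKBa-/- (29.3%) and 4 of 7 in wild type (28.6%). These were Rgs2 and Pde4b, both up, and Pfkfb3, down, in each genotype and at each time, with Ramp3, up, in wild type. Without wild type time 0 replicate 4 or time 48 replicate 1, 2 of 7 passed in wild type at time 48. With replicate number as a block 5 of 7 did, Crem being added (log2 change 0.27, adjusted p = 0.0419). Read against the shares of all genes, these counts set the 7 genes apart in no comparison.

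**Figure D3:**
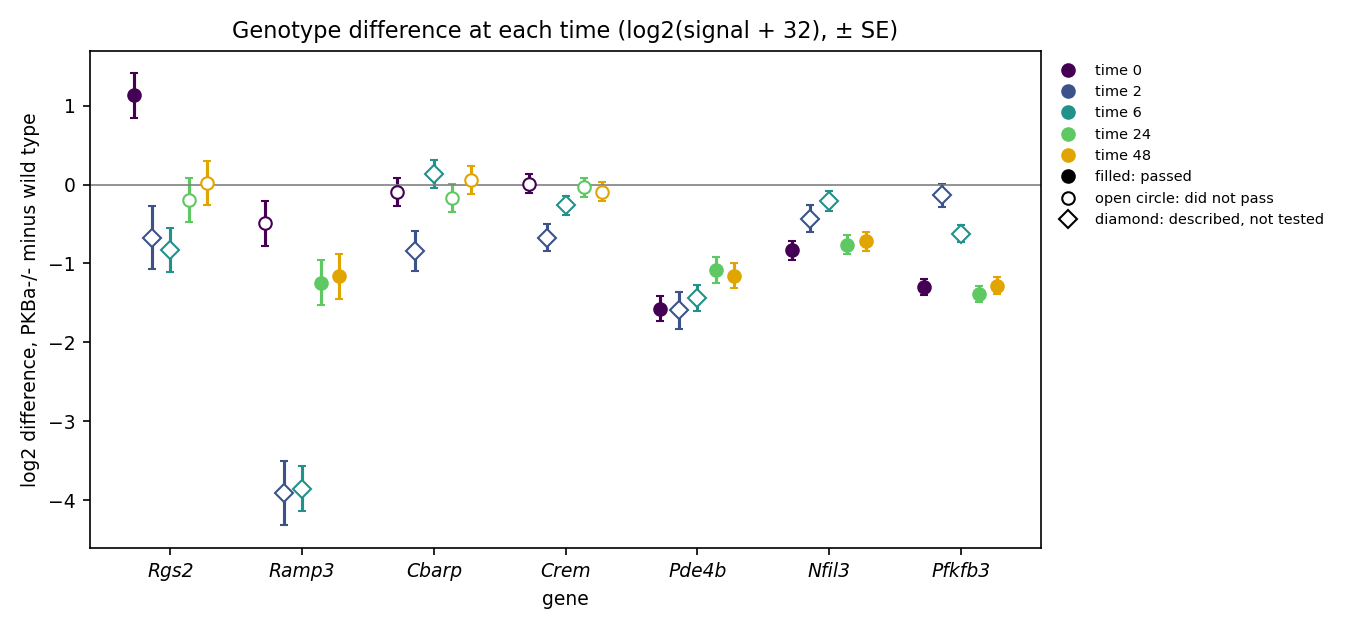
Log2 difference, PKBa-/- minus wild type, of log2(signal + 32) with its SE (vertical axis) for the 7 genes at the 5 times. Filled circles passed at an adjusted p under 0.05, open circles did not, and diamonds mark times 2 and 6, which were described with no test. Ramp3 stood at -3.91 and -3.86 at times 2 and 6, and Pde4b lay below 0 at all 5 times.

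The change from time 0 to time 24 differed between genotypes in 1 of the 7 genes, Rgs2, where 8.24% of all genes passed. Its rise was smaller in PKBa-/- by 1.32 ± 0.40 log2 units (adjusted p = 0.0318). It was not called with pair averages (adjusted p = 0.666) or a random effect of pairs (adjusted p = 0.111), and its second probe set gave -0.90 ± 0.43 (adjusted p = 0.268). Leaving out 1 array at a time ended the call for 8 of 16 arrays, namely replicates 1 and 2 of PKBa-/- time 0, 3 and 4 of wild type time 0, 3 and 4 of wild type time 24, and 3 and 4 of PKBa-/- time 24. At time 48 none of the 7 passed with limma (14.3% of all genes did). The difference of Rgs2 was -1.11 ± 0.40 (adjusted p = 0.0572), 1 gene was under 0.05 without adjustment, and 1 passed with replicate number as a block (Rgs2, adjusted p = 0.0495). The count was also 1 without wild type time 0 replicate 1, wild type time 48 replicate 1 or 2, or PKBa-/- time 0 replicate 3. These 2 comparisons share the arrays of time 0 with each other and with the comparison at time 0.

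Larger lists place the 7 genes among their pathway. These lists were drawn up with results of these arrays known. Their counts and adjusted p-values at the early times are therefore not independent evidence. Of 75 genes of cyclic AMP machinery, from receptors and G proteins to cyclases, phosphodiesterases, kinase A subunits and anchors, and CREB, 31 were tested. At time 2, 2 rose and 2 fell in PKBa-/- cells, where 6.40% of all genes rose and 8.93% fell. In wild type 1 rose and 3 fell at time 2, where 4.59% of all genes rose and 13.3% fell. Akap2, which anchors kinase A, rose in both, by 1.51 ± 0.11 in PKBa-/- (adjusted p = 8.07e-13) and by 0.79 ± 0.11 in wild type (adjusted p = 1.07e-06). The anchor Akap12 rose in PKBa-/- (1.26 ± 0.41, adjusted p = 0.0334), and Adcy6, a cyclase, fell in wild type (-0.44 ± 0.11, adjusted p = 0.00349). The list's median change was -0.05 in either genotype. Pair averages, or leaving out a time 2 array, left 1 value in a group of time 2, and those counts are not given. In PKBa-/- the count that passed was 2 without time 0 replicate 1 or 4.

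At time 6, 3 of the 31 rose and 5 fell in PKBa-/-, against 19.8% and 20.5% of all genes. In wild type 5 rose and 7 fell, against 15.6% and 20.7%. Pkig, an inhibitor of kinase A, fell by 0.77 in PKBa-/- (adjusted p = 1.64e-07) and by 0.63 in wild type (adjusted p = 6.42e-06), with an SE of 0.10 in each. Gnai1, an inhibitory G protein subunit, changed by -0.53 ± 0.19 in PKBa-/- (adjusted p = 0.0266) and -0.73 ± 0.19 in wild type (adjusted p = 0.00288). The phosphodiesterase Pde10a rose by 0.34 ± 0.10 in PKBa-/- (adjusted p = 0.00844) and by 0.83 ± 0.10 in wild type (adjusted p = 1.49e-07). Pair averages left 4 genes in PKBa-/- and 3 in wild type. The PKBa-/- count was 5 when its time 6 replicate 3 was left out.

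Other known CREB targets moved mostly up at time 2. Of 19 listed, 13 were tested, and 9 rose and 0 fell in PKBa-/- as in wild type, with median changes of 2.22 and 2.04. Of all genes, 6.40% rose and 8.93% fell in PKBa-/-, and 4.59% rose and 13.3% fell in wild type. Members of both counts were Nr4a1, Nr4a2, Fos, Junb, Dusp1, Ptgs2, Per1 and Cebpb. The list was drawn up with results of these arrays known, so its count is not independent evidence of a direction. The phosphatase Dusp1 rose by 3.50 ± 0.16 in PKBa-/- (adjusted p = 3.63e-17) and by 3.39 ± 0.16 in wild type (adjusted p = 4.81e-17). The transcription factor Fos rose by 3.34 ± 0.11 in PKBa-/- (adjusted p = 5.38e-21) and by 3.01 ± 0.11 in wild type (adjusted p = 1.18e-19). Nr4a2, an orphan nuclear receptor, rose by 3.17 ± 0.16 in PKBa-/- (adjusted p = 4.55e-16) and by 3.47 ± 0.16 in wild type (adjusted p = 3.43e-17). These genes also answer to other signals, serum and growth factors among them, and their count does not separate cyclic AMP from those signals. The part of dexamethasone, named in the labels' protocol, was not tested.

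At time 6, 6 CREB targets rose and 1 fell in PKBa-/-, and 6 rose and 2 fell in wild type. As before, the list was drawn up with results of these arrays known, so these counts are not independent evidence. Of all genes, 19.8% rose and 20.5% fell in PKBa-/-, and 15.6% rose and 20.7% fell in wild type. The clock gene Per1 rose by 1.56 ± 0.08 in PKBa-/- (adjusted p = 4.66e-16) and by 1.69 ± 0.08 in wild type (adjusted p = 1.27e-16). Cebpb, a transcription factor of early adipogenesis, rose by 1.81 ± 0.17 in PKBa-/- (adjusted p = 3.34e-10) and by 0.52 ± 0.17 in wild type (adjusted p = 0.0140). Egr1 fell by 1.55 ± 0.23 in PKBa-/- (adjusted p = 1.56e-06) and by 1.77 ± 0.23 in wild type (adjusted p = 2.83e-07). Pair averages left 4 of the 8 in wild type.

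**Figure D4:**
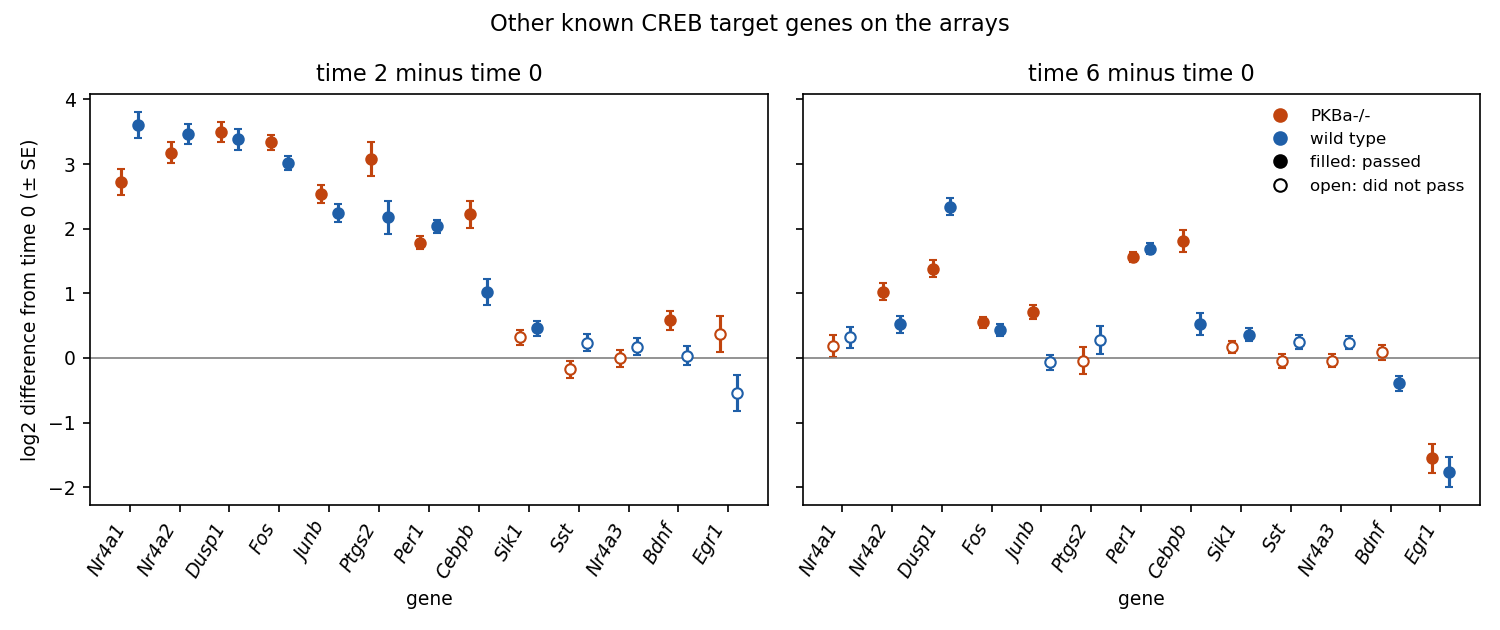
Log2 difference from time 0 with its SE (vertical axis) of 13 other known CREB target genes at time 2 (left) and time 6 (right), with PKBa-/- left of wild type for each gene. Filled points passed at an adjusted p under 0.05. In each genotype 9 genes were up at time 2, and Egr1 was down in both at time 6.

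Genes listed as relatives of the 7, by family or only by related function (phosphofructokinases and calcium channel subunits), moved in both directions. This list too was drawn up with results of these arrays known. Of 38, 14 were tested, with 2 up and 4 down at time 2 in PKBa-/- and the same counts in wild type, where 6.40% of all genes rose and 8.93% fell in PKBa-/- and 4.59% rose and 13.3% fell in wild type. Rgs3, of the family of Rgs2, fell at time 2 by 0.96 ± 0.14 in each genotype (adjusted p = 3.91e-06 in PKBa-/- and 3.83e-06 in wild type). Cebpd, a basic leucine zipper factor like Nfil3, rose by 2.54 ± 0.26 in PKBa-/- (adjusted p = 7.27e-09) and by 1.96 ± 0.26 in wild type (adjusted p = 1.22e-06). Tef, of the clock-linked zipper factors, changed by -0.63 ± 0.11 in PKBa-/- (adjusted p = 7.85e-05) and by -0.37 ± 0.11 in wild type (adjusted p = 0.0145). At time 6, 1 rose and 4 fell in PKBa-/-, and 2 rose and 5 fell in wild type, against 19.8% up and 20.5% down of all genes in PKBa-/- and 15.6% up and 20.7% down in wild type. Pfkp, a phosphofructokinase, fell by 0.52 ± 0.15 in PKBa-/- (adjusted p = 0.00634) and by 0.85 ± 0.15 in wild type (adjusted p = 5.30e-05). Pair averages left 2 genes in PKBa-/- and 4 in wild type at time 6. At time 2 they held 1 value a genotype, and their counts are not given.

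Over the 10 group means, the gene outside the 7 that was most like Rgs2 was Jmy, with a Pearson correlation of 0.911, followed by Tob2 (0.900), Dusp1 (0.893), Mt1 (0.887) and Cemip2 (0.886). Most like the mean of the 7 genes, each scaled, were Slc25a25 (0.969), Ippk (0.965), Dusp1 (0.963), Slc2a1 (0.945) and Slc25a30 (0.927). Slc25a25, a mitochondrial carrier, averaged 827 in PKBa-/- and 2695 in wild type arrays at time 2, and 418 in PKBa-/- and 463 in wild type arrays at time 0. Among the 7, the correlation was highest between Cbarp and Crem (0.937) and lowest between Cbarp and Pde4b (0.337). These 10 means share arrays, cells and the jump at time 2, and the correlations are a description.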

How the data were processed

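Total RNA of PKBa-/- and wild type fibroblasts was labelled as biotinylated cRNA, per the labels' protocols, and hybridised to 36 arrays. The deposited values are probe set signals, that is, linear intensity; the sources used here do not state the authors' summarisation or normalization. Probe sets were named through the platform annotation (20380 with 1 gene, 691 with several, 1555 with none, 64 controls), and the brightest probe set stood for each gene. Values were taken as log2(signal + 32), the 40% of genes with the lowest mean were left out, and 7436 of 12393 were tested with limma 3.58.1 in R 4.3.3, fitting 10 group means with Benjamini-Hochberg adjustment within each comparison at a threshold of 0.05. The fit was run on simulated arrays with independent noise. They lacked the likeness within replicate pairs, so that run does not show how the fit handles such pairs. Figures used matplotlib 3.10.9.

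The 7 genes and the lists were chosen with earlier results of these data known, so times 2 and 6 were described for the 7 genes and not tested. From each list, up to 4 genes with the largest change each way among those that passed were eligible to be given with that change. Other CREB targets that rose at time 2 were named without values, and Calcrl was named as the receptor with which Ramp3 pairs. Samples with the same replicate number deviated together in some comparisons (every pair's correlation over 0.1) and not in others; the fit with replicate number as a block is an alternative. Calls of the 7 genes that it changed are given beside their results. Other alternatives were offsets of 16 and 64, no filter, quantile normalization, averaging a gene's probe sets, pair averages, a random effect of pairs, each pair alone, the compared groups alone and leaving out each array. The part of fibroblast lines, medium or batch in the results was not tested. Promoter windows were read from RefSeq's table.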

Additional observations from a re-analysis of the deposited data

Results flagged for a closer look

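Replicate 4 of wild type time 24 read 190.4 for Pfkfb3, below the other 3 arrays of its group, which lay close together. Of 56 groups of 4 arrays checked for a single distant array this was the 1 found. The rule flags about 1 group in 20 for 4 independent normal values. These arrays came in like pairs, so that rate may not hold here. The change of Rgs2 from time 0 to time 24 differed between PKBa-/- and wild type by -1.32 (limma adjusted p = 0.0318), a difference that pair averages did not keep (adjusted p = 0.666). Pfkfb3 at time 6 lay above its time 0 mean on every PKBa-/- array, by 0.21 log2 units on average, and below it on every wild type array, with a mean change of -0.47. In PKBa-/- it was 0.40 ± 0.11 in the pair of replicates 1 and 2, but 0.01 ± 0.11 in the other pair. The dimmer probe set gave -0.13 ± 0.12 in PKBa-/-. In wild type the dimmer probe set averaged 93.9 at time 6 and 96.3 at time 0, and these arrays overlapped. The difference between the genotypes was not tested, because early changes chose the gene.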

How the results depend on the processing

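Of 27 results of single genes that passed, 15 passed under each of the 19 other settings run, and 12 failed under at least 1. The cause of the changes below was not tested. With pair averages, 1 of the 7 genes passed at times 24 and 48 in PKBa-/- and 2 in wild type, and 0 passed for the change at time 24 between genotypes. At time 6 they left 4 genes of cyclic AMP machinery in PKBa-/- and 3 in wild type, 2 and 4 relatives, and 4 CREB targets in wild type. At time 2 they held 1 value a genotype, and those counts are not given. A random effect of pairs left 1, 4, 1 and 5 of the machinery (PKBa-/- times 2 and 6, wild type times 2 and 6). It also left 3 relatives at time 2 in each genotype and 5 CREB targets in wild type at time 6. Of the 7 genes it left 2 in wild type at time 48 and 0 for the change at time 24. Replicates 1 and 2 alone gave Rgs2 a genotype difference of 0.53 at time 24, against -0.19 with all arrays, medians of -0.28 (genotype, time 6) and 0.46 (change between genotypes, time 6), 7 and 10 machinery genes at time 2, 12 and 13 wild type relatives at times 2 and 6, and 4 and 3 of the 7 genes for the change at times 24 and 48. Replicates 3 and 4 alone gave Rgs2 -0.64 at time 48, against 0.02, medians of -0.96 (genotype, time 6), 0.65 (PKBa-/-, time 6) and -0.082 (change between genotypes, time 6, against 0.14), 5 of the 7 genes in PKBa-/- at time 24 and 2 for the change at time 48. That last count was 1 with an offset of 16, quantile normalization or the replicate block, and 2 with the compared groups alone, which also left 2 of the 7 genes in wild type at time 48. The replicate block also gave 5 of the 7 genes in wild type at time 48. It moved some list counts, each by no more than 1.5 times, and ended no call of the 7 genes. An offset of 64 gave a median of 1.42 in PKBa-/- at time 2 and 0 genes for the change at time 24, as did the mean of all probe sets, whose wild type median at time 2 was 2.64. Machinery genes numbered 13 in PKBa-/- at time 6 with no filter, and 2 at time 2 with the mean of probe sets or quantile normalization. Leaving out 1 array at a time gave 0 to 1 genes for the change at times 24 and 48 and 2 to 4 in wild type at time 48. It gave 5 to 8 machinery genes in PKBa-/- at time 6. Ranges at time 2 are not given, because leaving out a time 2 array left 1 in its group. The median change between genotypes at time 6 ran from -0.0276 to 0.20, and was -0.0263 without wild type time 6 replicate 1 and -0.0276 without replicate 2. Time 2 rested on 2 arrays a genotype.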
